A study of Mus musculus with 18 samples.

Results

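Growth-factor receptors and fetal growth genes were followed in mouse macrophages in which Eed was deleted; EED is a core component of the Polycomb complex PRC2. The group holds 6 genes of 816 distinct symbols in the deposited lists: the receptors Bmpr1a and Igf1r, the fetal RNA-binding protein gene Igf2bp3, the imprinted growth gene Peg10, the fetal chromatin protein gene Hmga2 and the Wnt ligand gene Wnt6. They were picked by symbol with their listed values already known, so every value below is a description and none is a test of the choice. All 6 symbols were found, in 13 of 1023 listed rows.

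RNA-seq was done on macrophages grown from mouse bone marrow in medium conditioned by L929 cells, a source of macrophage growth factor. EED KO cells came from Eed fl/fl; LysM-Cre+/- mice, and WT cells came from littermate control mice, whose own Eed and Cre alleles the labels do not spell out. LysM-Cre places the recombinase in the lysozyme gene Lyz2, which is active in myeloid cells. Lyz2 itself stood at -1.17, -1.19 and -0.93 in unstimulated, primed and tolerant cells per the authors' deposited table. There were 18 libraries in 6 groups of 3: EED KO and WT unstimulated cells, EED KO and WT cells primed with lipopolysaccharide (LPS) at 100 ng/ml for 24 h, and EED KO and WT LPS tolerant cells. Tolerant cells were primed in the same way, left to rest for 48 h and then stimulated a second time with 10 ng/ml, for a time that the labels do not state. The labels state neither the age or sex of the mice nor whether replicates came from separate mice, so the p-values may measure technical spread. The files analysed are the authors' lists of genes that differ between EED KO and WT cells in each condition, so values per library were not analysed here and the depth is unknown. Whether 1 WT LPS primed library, which has no description, entered the LPS primed comparison is not known. Each row gives a log fold change of EED KO over WT, taken here as base 2, an unadjusted p and an adjusted p, and may stand for part of a gene. Eed itself, which checks the direction, stood at -3.04, -3.59 and -3.87 in unstimulated, primed and tolerant cells according to the authors' deposited table.

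PRC2 methylates histone H3 at the promoters of developmental genes and so helps to keep them silent in cells that do not use them. CpG-rich promoters are its usual sites in mammals. Bone morphogenetic proteins (BMPs), insulin-like growth factors (IGFs) and Wnt proteins are secreted signals that direct growth and patterning in the embryo. The fetal RNA-binding and chromatin proteins sustain growth in embryonic tissue and are low in most adult tissues, in part through repression by the let-7 microRNAs. In macrophages, IGF and BMP signals are known to influence survival and activation.

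Promoter sequence was a feature that the choice of genes did not use. RefSeq windows from 250 bases before to 50 bases after the start (build GRCm38.p6) were found for 5 of the 6 genes; Peg10 had no entry. The windows of Bmpr1a, Igf2bp3 and Hmga2 are shown, as a receptor gene with very many CpG sites, the RNA-binding protein gene that rose in every condition and the gene that was listed as lower. Capitals mark CpG dinucleotides, and each sequence runs 5′ to 3′ on the strand of its gene. The windows lie at chr14:34502497-34502796 (minus strand), chr6:49214905-49215204 (minus strand) and chr10:120476420-120476719 (minus strand).
Bmpr1a: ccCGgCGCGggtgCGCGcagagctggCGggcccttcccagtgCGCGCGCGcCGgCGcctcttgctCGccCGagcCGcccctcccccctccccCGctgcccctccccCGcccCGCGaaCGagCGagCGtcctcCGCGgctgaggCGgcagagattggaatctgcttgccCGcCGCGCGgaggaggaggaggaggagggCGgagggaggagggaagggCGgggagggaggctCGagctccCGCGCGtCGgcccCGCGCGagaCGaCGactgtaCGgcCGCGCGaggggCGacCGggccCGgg
Igf2bp3: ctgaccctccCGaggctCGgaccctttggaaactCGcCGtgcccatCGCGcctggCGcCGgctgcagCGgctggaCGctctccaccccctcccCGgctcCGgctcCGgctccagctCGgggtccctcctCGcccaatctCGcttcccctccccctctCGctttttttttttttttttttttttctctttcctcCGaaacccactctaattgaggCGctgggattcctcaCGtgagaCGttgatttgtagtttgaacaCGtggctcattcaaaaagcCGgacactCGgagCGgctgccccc
Hmga2: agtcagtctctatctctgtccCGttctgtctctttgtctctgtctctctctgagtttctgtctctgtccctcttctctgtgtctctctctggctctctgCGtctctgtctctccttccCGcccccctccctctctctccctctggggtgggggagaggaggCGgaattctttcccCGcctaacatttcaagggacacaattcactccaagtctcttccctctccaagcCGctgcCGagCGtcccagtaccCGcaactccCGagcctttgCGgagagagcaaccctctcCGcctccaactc

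The Bmpr1a window held 48 CpG sites and was 79.3% G or C. Igf1r, at chr7:67952007-67952306 (plus strand), also held 48 sites, with 76.0% G or C. Of 17492 protein-coding genes with a window in the same RefSeq table, 98.5% had fewer sites than these receptor genes, and the median was 13. Wnt6, at chr1:74771642-74771941 (plus strand), held 31 CpG sites, more than 86.6% of those genes. Igf2bp3 held 25 sites, above 75.5% of genes, and Hmga2 held 12, above 46.7%. Hmga2, with 12 sites against 13, was thus the only one of the 5 below the median in CpG sites. Any link between CpG sites and the listed fold changes was not tested. The ratio of observed to expected CpG was 1.11 for Igf1r, 1.02 for Bmpr1a, 0.98 for Igf2bp3, 0.74 for Wnt6 and 0.54 for Hmga2, against a median of 0.58.

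**Figure D1:**
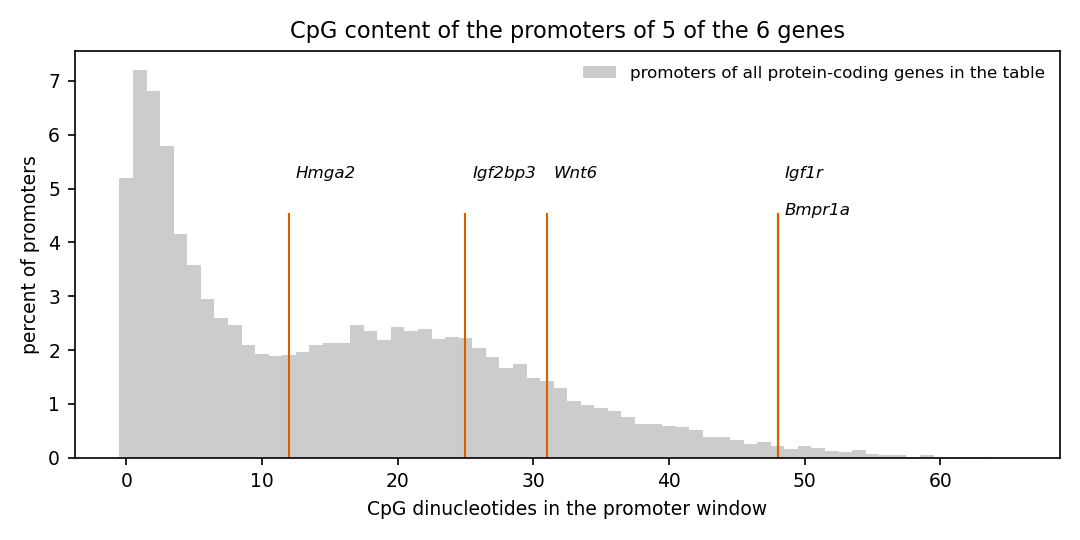
Number of CpG dinucleotides in the RefSeq promoter window (horizontal axis) against the percent of protein-coding gene promoters with that number (vertical axis, grey bars); vertical lines mark 5 of the 6 genes. Bmpr1a and Igf1r stand at 48 sites in the right tail, Wnt6 at 31, Igf2bp3 at 25 and Hmga2 at 12, beside a median of 13.

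Bmpr1a and Igf2bp3 were higher in EED KO cells in all 3 conditions and passed an adjusted p of 0.05 each time. Peg10 rose in LPS primed and LPS tolerant cells and was not listed in unstimulated cells. Igf1r was listed as higher in all 3 conditions without passing the adjusted threshold. Wnt6, listed as higher, and Hmga2, listed as lower, appeared in LPS primed cells and did not pass. Of the members listed, 2 of 3 rose in unstimulated cells, 3 of 6 in LPS primed cells and 3 of 4 in LPS tolerant cells, beside 16.7%, 27.6% and 21.2% of all listed rows. Counted by direction alone, 3 of 3, 5 of 6 and 4 of 4 listed members were higher, beside 76.7%, 79.8% and 82.1% of all listed rows. These comparisons were the ones from which the genes were picked, so nothing is read from the members' larger share. The libraries are bulk samples, in which fewer cells of a type and less RNA per cell cannot be told apart.

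**Figure D2:**
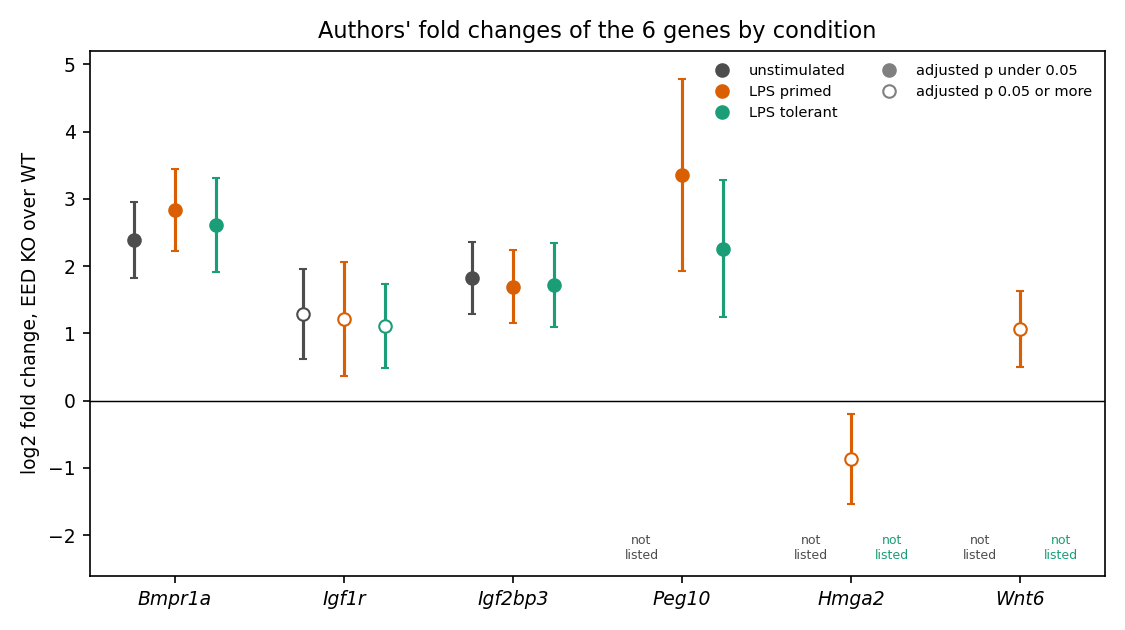
Log2 fold change of EED KO over WT from the authors' deposited table (vertical axis) for each of the 6 genes, by condition; bars are approximate 95% intervals implied by the unadjusted p, and open points have an adjusted p of 0.05 or more. Bmpr1a lies between 2.39 and 2.83, Igf2bp3 between 1.69 and 1.82 and Igf1r between 1.11 and 1.29 over 3 conditions, while Hmga2 is the one point below 0.

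Bmpr1a encodes a type I receptor, a serine/threonine kinase that pairs with a type II receptor to bind BMPs and then phosphorylates SMAD proteins. The authors' deposited table puts its log2 fold change at 2.39 in unstimulated cells, a 5.24-fold higher level in EED KO than in WT cells (approximate 95% interval 3.53 to 7.78). For LPS primed cells the authors' deposited table has 2.83, or 7.13-fold (4.66 to 10.9), and for LPS tolerant cells 2.61, or 6.11-fold (3.76 to 9.93). Its intervals overlapped across the conditions, and each lay above a 3-fold difference. The adjusted p-values were 3.81e-12, 1.51e-15 and 6.24e-10 for unstimulated, primed and tolerant cells per the authors' deposited table (edgeR, named in the submitters' processing notes). By p it stood 6th of 227, 5th of 377 and 13th of 419 listed rows. Ranks by p, here and below, count listed rows only. If the adjustment was Benjamini-Hochberg, the adjusted p-values imply lower places for the members among all the authors' tests. Many tests with a smaller p are then missing from the lists, so these ranks overstate the members' standing.

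Igf1r encodes the receptor tyrosine kinase for IGF1 and IGF2. The log2 fold change reached 1.29 in unstimulated cells, 1.21 in LPS primed cells and 1.11 in LPS tolerant cells according to the authors' deposited table, that is 2.45-fold (1.54 to 3.90), 2.31-fold (1.29 to 4.17) and 2.15-fold (1.40 to 3.31). All 3 values were higher in EED KO cells, and none passed: the authors' deposited table gives adjusted p-values of 0.165, 0.427 and 0.136 in the same order. All listed rows have an unadjusted p under 0.05, so that the intervals leave out 0 follows from the selection. By p, Igf1r stood 63rd of 227, 265th of 377 and 130th of 419 listed rows.

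Igf2bp3 encodes an RNA-binding protein of the embryo and of tumours that binds the IGF2 messenger and many others and stabilises them. Log2 fold changes of 1.82, 1.69 and 1.72 in unstimulated, primed and tolerant cells are given by the authors' deposited table. In fold terms these were 3.53 (2.44 to 5.12), 3.24 (2.23 to 4.71) and 3.29 (2.14 to 5.06). The adjusted p-values in the authors' deposited table were 1.46e-07, 7e-07 and 6.37e-05. The spread of its 3 values, 0.13 from lowest to highest, was smaller than the approximate standard error of each, 0.27 to 0.32. On the opposite strand, Malsu1, a mitochondrial ribosome assembly factor, overlaps Igf2bp3 in GENCODE vM21 and was not listed. In the same annotation, opposite-strand genes also overlap Bmpr1a (Gm17110), Wnt6 (Gm29539) and Hmga2 (1700006J14Rik and 9230105E05Rik), and were not listed. The kit was stranded per the labels' protocols, but no source used here says whether counting used the strand.

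Peg10 is expressed from the paternal allele and descends from a retrotransposon; in mice it is needed to form the placenta. For LPS primed cells the authors' deposited table lists a log2 fold change of 3.36, or 10.2-fold (3.81 to 27.5), with an adjusted p of 0.00217. For LPS tolerant cells the authors' deposited table has 2.26, or 4.78-fold (2.36 to 9.67), with an adjusted p of 0.00787. These are the widest intervals among the 6 genes. In LPS primed cells Peg10 was 7th in size of 301 higher rows but 66th of 377 listed rows by p. All listed rows have an unadjusted p under 0.05 and an absolute log2 fold change of at least 0.75, but other filters are not known, so absence from the unstimulated list does not give the size of the difference there. Sgce, an imprinted gene that neighbours Peg10 in GENCODE vM21, was not listed in any condition. Ppp1r9a, its neighbour on the other side, was listed in tolerant cells at 0.77 (adjusted p = 1), as the authors' deposited table gives it.

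Wnt6 encodes a secreted Wnt ligand. It was listed in LPS primed cells, where the authors' deposited table has a log2 fold change of 1.07, or 2.10-fold (1.42 to 3.10), with an adjusted p of 0.0604. It was the 1 listed gene of 19 Wnt ligands in any condition. Wnt10a, next to it in GENCODE vM21, was not listed.

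Hmga2 encodes a small chromatin protein that bends DNA through its AT-hooks and promotes growth of the embryo. It was the only member listed as lower: the authors' deposited table puts it at -0.87 in LPS primed cells, or 1.82-fold lower in EED KO than in WT cells, with an adjusted p of 0.654. That row stood 306th of 377 listed rows by p, and 79.8% of the listed rows in LPS primed cells were higher.

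**Figure D3:**
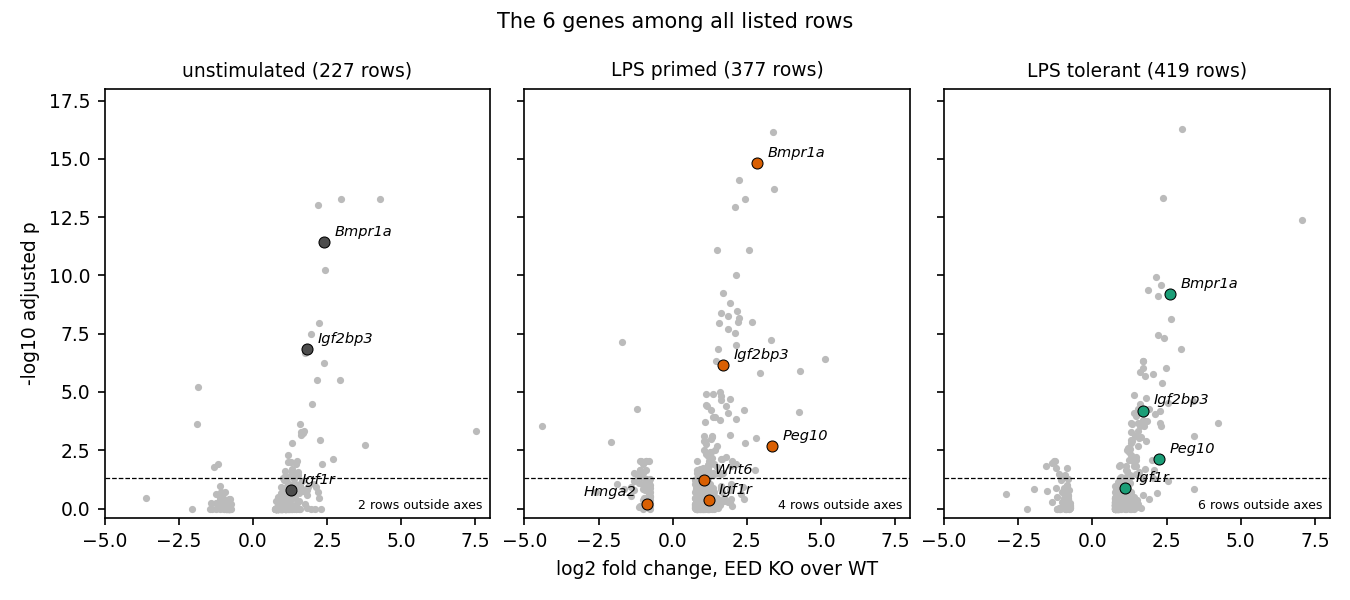
Log2 fold change of EED KO over WT (horizontal axis) and -log10 of the adjusted p (vertical axis) for every listed row in the authors' deposited table (grey) and the 6 genes (coloured), in unstimulated, primed and tolerant cells; the dashed line is an adjusted p of 0.05. Bmpr1a and Igf2bp3 lie above the line in each panel, Igf1r lies below it, and 2, 4 and 6 rows fall outside the axes.

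The fold changes of the members did not separate the conditions beyond their approximate error. Peg10 had the largest gap, with 2.26 in LPS tolerant against 3.36 in LPS primed cells per the authors' deposited table. That difference of -1.10 has an approximate standard error of 0.89 and a 95% interval from -2.85 to 0.65. For Bmpr1a the authors' deposited table has 2.83 in LPS primed against 2.39 in unstimulated cells, a difference of 0.44 with an approximate standard error of 0.43 (interval -0.39 to 1.28). Igf1r and Igf2bp3 differed by at most 0.18 in absolute value between conditions. All 10 intervals included 0, which does not show that the effect of Eed loss was the same in each condition. The standard errors are implied by p-values on the assumption of a normal test and independent libraries. With a t quantile of 4 degrees of freedom instead, 6 of the 10 intervals exclude 0. The implied standard errors are then as small as 0.000191, for Bmpr1a in LPS primed against unstimulated cells. Errors that small are not credible for 3 libraries per group, so no difference is read from them.

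Presence in every list was uncommon. Of 816 symbols, 39 (4.78%) were listed in all 3 conditions, and Bmpr1a, Igf1r and Igf2bp3 are 3 of those 39. An adjusted p under 0.05 in all 3 was reached by 8 symbols (0.98%), of which 6 were higher: Bmpr1a, Igf2bp3, Cd55, Clstn1, Kctd17 and Plxdc2. The others, Eed and Lyz2, are the deleted gene and the locus that carries Cre. None of the 4 members listed in more than 1 condition changed sign. Only 12 of all 164 symbols listed in more than 1 condition did, so keeping the sign is not particular to the members.

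The genes whose fold changes lay closest to those of a member were taken from the same conditions by Euclidean distance on the log2 scale. Nearest to Bmpr1a among 38 genes was Clstn1, a calsyntenin of the cadherin superfamily, at a distance of 0.64, followed by F13a1 at 0.99 and Cd55 at 1.16. The values of Clstn1 were 2.97, 2.68 and 2.41 in unstimulated, primed and tolerant cells per the authors' deposited table. Nearest to Igf2bp3 were the membrane protein gene Tmem176a at 0.33, Cd55 at 0.55 and Tmem176b at 0.65. Igf1r lay nearest to Kctd17 at 0.23, Rragd at 0.27 and Cdc42bpa at 0.32. Peg10, over 2 conditions and 110 genes, lay nearest to the kinase gene Mast4 at 0.30, then Bmpr1a at 0.63 and Clstn1 at 0.69. These distances rest on 2 or 3 fold changes each and say nothing of shared control.

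Around Bmpr1a, the BMP and TGF-beta list of 51 genes had 2, 3 and 4 listed genes in unstimulated, primed and tolerant cells. All were higher in EED KO cells, beside 76.7%, 79.8% and 82.1% of all listed rows. Rows that rose made up 16.7%, 27.6% and 21.2% of all listed rows in the same order. Both sets of shares also stand beside the counts of the lists below. Nothing is read from a few genes that are all higher, or from so few that rose. Bmpr1a was the only gene of this list that rose. Among the ligands, Bmp2 stood at 1.58 (adjusted p = 0.118) in unstimulated cells, per the authors' deposited table. The co-receptor gene Eng had 0.86 (adjusted p = 0.0559) in LPS primed and 0.77 (adjusted p = 0.99) in LPS tolerant cells by the authors' deposited table. The transducer Smad3 had 0.78 (adjusted p = 0.557) in LPS primed cells, again from the authors' deposited table. Both Smad7, an inhibitor, and Id1, a classical BMP target, were listed in LPS tolerant cells, at 0.85 (adjusted p = 0.15) and 1.02 (adjusted p = 0.62), as the authors' deposited table gives them. The medians of the listed genes, Bmpr1a included, were 1.98, 0.86 and 0.94. All listed rows had 0.98, 0.96 and 0.86, and the higher rows alone had 1.11, 1.09 and 0.92. No type II receptor of the list was listed.

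In the IGF and insulin list of 27 genes, 2, 4 and 4 were listed in unstimulated, primed and tolerant cells, all higher. Of these, 1, 2 and 2 rose, beside 16.7%, 27.6% and 21.2% of all listed rows. Igf2bp3 was among those that rose each time. Igf2bp1, a close relative of Igf2bp3, rose by 2.32 (adjusted p = 0.000276) in LPS tolerant cells as the authors' deposited table gives it. Igf2bp2 stood at 0.79 (adjusted p = 0.881) in LPS primed cells, per the authors' deposited table. Each of the 3 Igf2bp genes was thus listed as higher in at least 1 condition, and 2 of the 3 rose. The binding protein gene Igfbp4, whose product holds IGFs in check, rose by 1.06 (adjusted p = 0.0439) in LPS primed cells per the authors' deposited table. Igfbp7 had 1.12 (adjusted p = 0.12) in LPS tolerant cells, per the authors' deposited table. The ligand genes Igf1 and Igf2, Insr and the Irs adaptors were not listed in any condition. The medians of the listed genes were 1.56, 1.14 and 1.42. All rows had 0.98, 0.96 and 0.86, and the higher rows alone had 1.11, 1.09 and 0.92. Igf1r and Igf2bp3 enter each median of the list and are its only listed genes in unstimulated cells. They were picked with their values known, so nothing is read from the gap.

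**Figure D4:**
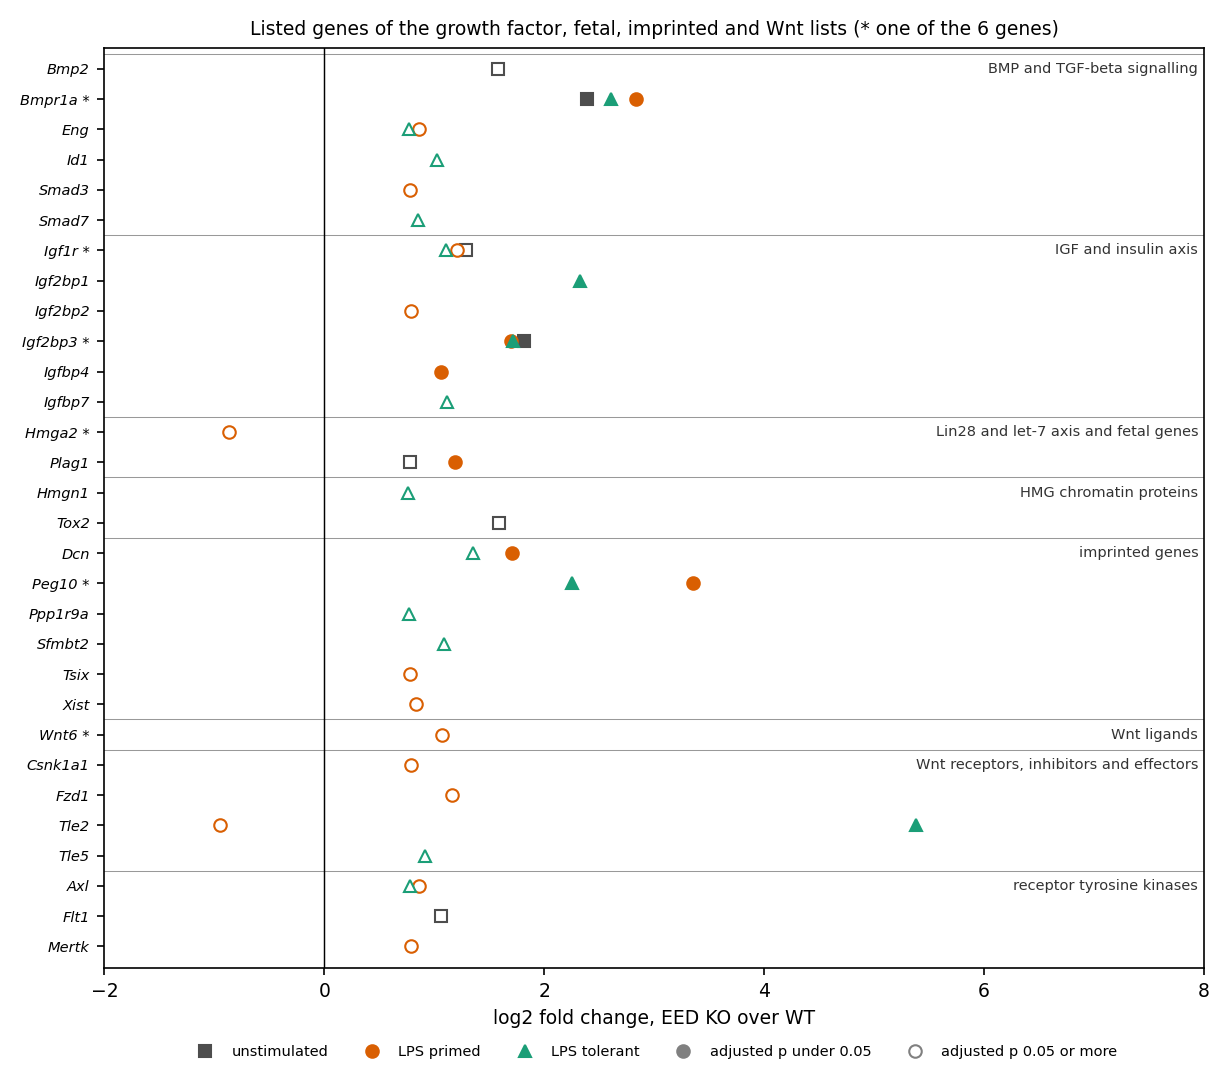
Log2 fold change of EED KO over WT from the authors' deposited table (horizontal axis) for the listed genes of the 8 pathway lists (rows, grouped by the first list that holds each gene), with squares for unstimulated, circles for LPS primed and triangles for LPS tolerant cells; filled symbols have an adjusted p under 0.05. Most points lie between 0.75 and 3, Hmga2 is below 0, and Tle2 has -0.94 in LPS primed and 5.38 in LPS tolerant cells.

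The fetal list of 19 genes around Lin28 and let-7 had 2, 4 and 2 listed genes in unstimulated, primed and tolerant cells. Of these, 1, 2 and 2 rose, beside 16.7%, 27.6% and 21.2% of all listed rows, and none fell. Plag1, a transcription factor gene that activates Igf2 and is active in the embryo, rose by 1.19 (adjusted p = 0.0141) in LPS primed cells and had 0.78 (adjusted p = 1) in unstimulated cells per the authors' deposited table. The medians were 1.30, 0.99 and 2.02. All rows had 0.98, 0.96 and 0.86, and the higher rows alone had 1.11, 1.09 and 0.92. The member Igf2bp3 enters each median of the list and each count of genes that rose, and Hmga2 enters the LPS primed median. Nothing is read from the gap to all rows. Lin28a, Lin28b, Trim71 and Hmga1 were not listed. Among 15 HMG chromatin protein genes, Hmga2 was the only one listed in LPS primed cells. Tox2 at 1.59 in unstimulated and Hmgn1 at 0.76 in LPS tolerant cells were the others, with adjusted p-values of 1 and 0.795 in the authors' deposited table.

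The let-7 family shares a seed, bases 2 to 8, that pairs with its targets, and the listed fetal genes include several of its known targets. MicroRNAs were not measured in these libraries. The mature sequence from RefSeq has the seed in capitals, and 1 match from the 3′ UTR of each of 3 genes has the match CTACCTC in capitals (GENCODE vM21, GRCm38, longest coding transcript).
mmu-let-7a-5p: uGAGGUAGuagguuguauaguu
Igf2bp3: atttttactcaaCTACCTCaggtattcagt
Igf1r: tcaaacatttatCTACCTCactcttgtttt
Hmga2: gacattcaatttCTACCTCagcatcagttg

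Read on the sense strand, the 3′ UTR of Hmga2 held 4 such matches, Igf1r held 2 and Igf2bp3 held 1, while Bmpr1a, Peg10 and Wnt6 held 0. Of the other fetal genes searched, Igf2bp1 held 4, Igf2bp2 held 1, Lin28b, which was not listed, held 4, and Plag1, which rose in LPS primed cells, held 0. Among 21877 protein-coding genes, 8.48% had at least 1 match and 1.03% at least 2. Genes without an annotated 3′ UTR were kept in that number, which lowers these shares. The length of the 3′ UTR, 7267 bases in Igf1r, 3014 in Hmga2 and 2119 in Igf2bp3, was not taken into account. Genes with matches were thus listed both as higher (Igf2bp3, Igf1r, Igf2bp1, Igf2bp2) and as lower (Hmga2) in EED KO cells. A match is a run of letters and not evidence of repression in these cells.

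Of 65 imprinted genes, 0, 4 and 4 were listed in unstimulated, primed and tolerant cells, all higher. Of these, 2 rose in LPS primed and 1 in LPS tolerant cells, beside 27.6% and 21.2% of all listed rows. The proteoglycan gene Dcn rose by 1.71 (adjusted p = 0.0287) in LPS primed cells and had 1.35 (adjusted p = 0.668) in LPS tolerant cells per the authors' deposited table. Sfmbt2, a Polycomb-group gene, stood at 1.09 (adjusted p = 0.461) in LPS tolerant cells, per the authors' deposited table. Tsix and Xist, an overlapping antisense pair on the X chromosome that differs with sex, did not pass after priming: the authors' deposited table has Tsix at 0.78 (adjusted p = 0.637) and Xist at 0.83 (adjusted p = 0.846), and the part of sex in these comparisons was not tested. Peg10 was the only imprinted gene of the list that rose in both LPS conditions. The listed genes, Peg10 included, had medians of 1.27 in LPS primed and 1.22 in LPS tolerant cells. All rows had 0.96 and 0.86, and the higher rows alone had 1.09 and 0.92.

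Among 62 Wnt receptors, inhibitors and effectors, 0, 3 and 2 were listed in unstimulated, primed and tolerant cells, with 1 that rose. This was Tle2, a corepressor that can bind TCF factors, at 5.38 (adjusted p = 1.03e-24) in LPS tolerant cells, while it stood at -0.94 (adjusted p = 0.161) in LPS primed cells, per the authors' deposited table. The Wnt receptor gene Fzd1 had 1.16 (adjusted p = 0.421) in LPS primed cells, where Wnt6 was listed, per the authors' deposited table. Csnk1a1, a kinase of the beta-catenin destruction complex, had 0.79 (adjusted p = 0.865) in LPS primed cells, and Tle5 had 0.92 (adjusted p = 0.084) in LPS tolerant cells, per the authors' deposited table. The medians were 0.79 in LPS primed and 3.15 in LPS tolerant cells, the second over only 2 genes.

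Of 51 receptor tyrosine kinases, Igf1r was the only one listed in all 3 conditions. In total 2, 3 and 2 were listed in unstimulated, primed and tolerant cells, all higher, and none rose. Flt1, a VEGF receptor gene, had 1.06 (adjusted p = 0.489) in unstimulated cells, per the authors' deposited table. The engulfment receptor genes Axl and Mertk had 0.86 (adjusted p = 0.577) and 0.79 (adjusted p = 0.374) in LPS primed cells, and Axl had 0.78 (adjusted p = 0.15) in LPS tolerant cells, by the authors' deposited table. The medians were 1.18, 0.86 and 0.94.

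Markers of other cells were checked in the same lists. Of 12 macrophage markers, 1 was listed in each condition and none passed: Mrc1 at 1.24, Mertk at 0.79 and Cd163 at 0.95 in unstimulated, primed and tolerant cells per the authors' deposited table. Of 14 stromal markers, Dcn rose in LPS primed cells beside Peg10, and Dcn and Igfbp7 were listed in LPS tolerant cells; Col1a1, Col1a2 and Col3a1 were not listed. Of 14 progenitor markers, Cd34 had 1.84 (adjusted p = 0.153) in unstimulated cells and Myb rose by 2.78 (adjusted p = 0.0231) in LPS primed cells, as given in the authors' deposited table, while Kit and Flt3 were not listed. Of 11 dendritic cell markers, Fscn1 rose by 2.58 in LPS primed and 1.30 in LPS tolerant cells, per the authors' deposited table, and Cd24a had 0.93 (adjusted p = 0.573) in unstimulated cells. Ighm was the 1 listed gene of 12 lymphocyte markers, at 1.63 (adjusted p = 0.132) in unstimulated cells per the authors' deposited table. Of 11 neutrophil markers, Mcemp1 fell by 1.09 on the log2 scale in LPS primed cells and Mmp8 rose by 1.30 in LPS tolerant cells, as the authors' deposited table lists them. The part of other cell types in the members' values was not tested.

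The share of listed genes beside the members was that of the background. Of the 60 protein-coding genes that flank them in GENCODE vM21, 5 on each side, 2 were listed, Ppp1r9a beside Peg10 and Pgpep1l beside Igf1r. Of all 21924 protein-coding genes in that annotation, 3.33% were listed in at least 1 condition. Pgpep1l had 1.26 in unstimulated cells, per the authors' deposited table.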

How the data were processed

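The study made 18 RNA-seq libraries of bone marrow-derived macrophages, 3 for each of 6 groups, read as pairs of 150 bases from a stranded mRNA kit, per the labels' protocols. HISAT2, edgeR, R 4.0.3 and build GRCm39 are named in the submitters' processing notes; no source used here gives the test, filters or annotation. The authors deposited, per condition, a list of higher and a list of lower genes with a log2 fold change (the base is assumed; the file headers say only logFC) and p-values before and after adjustment. The deposited rows all have a p-value under 0.05 and an absolute log2 fold change of at least 0.75.

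The ratio of adjusted to unadjusted p in the first row by p was 413233 in unstimulated, 379747 in LPS primed (from rounded values) and 338297 in LPS tolerant cells. Under Benjamini-Hochberg adjustment this is the number of tests, which exceeds the number of genes, so a row may stand for part of a gene. WT LPS primed replicate 1 carries no description naming its comparison, unlike the rest.

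No model was fitted, since values per library were not analysed here. Values were copied, and rose or fell is used at an adjusted p under 0.05. Approximate standard errors are the absolute log2 fold change over the normal quantile of p. Named genes were all 6 members, listed genes of 14 gene lists (each that passed, and up to 4 others per list and condition), and the 3 nearest genes per member. Genes said to be not listed, flanking genes and Lyz2 were named after their values were seen. Members and lists were chosen with earlier results of these data known. Promoter windows matched 606 of 816 listed symbols, so a comparison with all listed genes was void and not made. Counts and sequence searches used Python 3.11.15, pandas 2.3.3 and SciPy 1.17.1, and were tested on simulated data.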

Additional observations from a re-analysis of the deposited data

How the results depend on the processing

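No paired analysis was possible because the deposited lists hold no values per library; for the same reason no replicate could be left out in turn. With an adjusted p under 0.1, under 0.01, or under 0.05 with an absolute log2 fold change of at least 1, the members past the threshold numbered 2 in unstimulated, 3 in LPS primed and 3 in LPS tolerant cells, except 4 in LPS primed cells at 0.1, where Wnt6 was added. At an unadjusted p under 0.01 there were 3, 5 and 4 members in unstimulated, primed and tolerant cells, 5 against 3 being the largest shift. Over all rows, 29 passed an adjusted p of 0.01 in unstimulated cells, against 44 at 0.05. The 39 genes listed in all 3 conditions became 8 when each row had to pass an adjusted p of 0.05, a check added after the data had been seen. Taking 1 row per symbol changed no member count. With a t quantile of 4 degrees of freedom the implied standard errors shrank to between 0.000448 and 0.452 times their values; the authors' test is not known to have this form. In a window of 150 bases the CpG ratio was 1.15 for Bmpr1a, 1.18 for Igf1r, 1.11 for Igf2bp3, 0.76 for Wnt6 and 0.74 for Hmga2.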

Other observations

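Single genes outside the lists are given here as values; they were chosen after their values were seen and stand for no group. Ereg, a ligand of EGF receptors, rose by 3.00 (adjusted p = 1.46e-07) in LPS tolerant cells per the authors' deposited table. Ltbp2, a matrix protein related to the binders of latent TGF-beta, rose by 2.38 in unstimulated and 2.21 in LPS tolerant cells in the authors' deposited table. Pmepa1, a feedback inhibitor of TGF-beta signalling, rose by 1.41 (adjusted p = 0.0145) in LPS tolerant cells and had 1.43 (adjusted p = 0.358) in unstimulated cells by the authors' deposited table. Tsku, a secreted modulator of BMP and Wnt signals, rose by 1.05 in LPS primed cells and had 1.17 (adjusted p = 0.12) in LPS tolerant cells per the authors' deposited table.

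Values of 4 transcription factor genes, chosen in the same way, follow. Runx3 rose by 1.88 in LPS primed and 2.26 in LPS tolerant cells, per the authors' deposited table. Sall2 and Ets1 rose by 1.92 and 1.44 in LPS primed cells, Ets1 had 0.81 (adjusted p = 0.878) in LPS tolerant cells, and Sox4 rose by 1.46 (adjusted p = 0.0128) in unstimulated cells, according to the authors' deposited table.

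Tle2 and Tuba1a, a tubulin gene, were among the 12 symbols listed with opposite signs. Tuba1a rose by 2.14 (adjusted p = 1.15e-10) in LPS tolerant cells and stood at -1.06 (adjusted p = 0.187) in unstimulated cells in the authors' deposited table. Whether such rows stand for the same part of a gene in each list was not tested.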
